A study of Mus musculus with 25 samples.

Results

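The genes described here were those whose RNA was more abundant in the mouse brain at 9 and 15 months of age than at both 2 and 24 months. Levels were expressed as CPM, that is counts relative to the total of the library, scaled between libraries by the trimmed mean of M values (TMM). A gene was a member if it was protein-coding, averaged at least 5 CPM over the 20 libraries of 2, 9, 15 and 24 months, and had 9 and 15 month means that were each at least 15% above each of the 2 and 24 month means. The 30 month libraries took no part in the choice. Of 47729 genes in the table, 11485 were protein-coding at the required level, and 26 of these, or 0.226%, were members, so that the upper limit of 200 members was not reached. Of the 26, 25 are named below. The mirrored rule, with the 9 and 15 month means below the 2 and 24 month means by the same factor, was met by 53 genes.

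Of the 26 members, 8 code for proteins of the endoplasmic reticulum (ER) or for the transcription factor that drives their genes, among them 4 of the 5 members with the largest ratio of the 9 and 15 month mean to the 2 and 24 month mean (called the ratio below). The ER is the compartment in which secreted and membrane proteins fold. Its lumen holds chaperones, led by the Hsp70 protein BiP, co-chaperones that steer BiP, and disulfide isomerases that pair cysteines. When unfolded proteins build up, membrane sensors start the unfolded protein response, in which the transcription factors XBP1 and ATF6 raise the transcription of these same chaperone genes. In the brain the response is best known from neurons and glia with a heavy load of secreted or membrane proteins.

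RNA sequencing had been carried out on hemispheres of the brain, as total RNA, from males of the inbred laboratory mouse strain C57BL/6, with no treatment named in the labels. The groups, which the series compares by age, were 2, 9, 15, 24 and 30 months of age with 5 libraries each, every one with a number of its own in its title. The labels do not say how the animals were housed, killed or pooled, and p-values measure the spread between these libraries. Because each hemisphere holds many cell types, fewer cells of a type and less RNA per cell cannot be told apart. None of the 26 members was in any of the marker lists of brain cell types and regions that were read as a check, but some lists moved between the ages the rule compares. The summed level of 8 oligodendrocyte markers, with 7 of 8 genes lower at 9 and 15 months, was 0.877 times its 2 and 24 month level, and ran from 4936 to 5311 CPM at 15 months, against 6020 to 6441 CPM at 24 months. The sum of 7 markers of pericytes and smooth muscle stood at 0.875 times, and that of 7 hippocampal markers, each with a ratio above 1, at 1.07 times the level of the end ages. The sums of 10 neuronal and 8 astrocyte markers were 1.04 and 1.05 times that level. Only 5 of the 10 and 2 of the 8 genes had a ratio above 1. Sums of choroid plexus, immature neuron and dividing cell, and deep cortex markers were 0.819, 0.873 and 1.07 times it. The immature neuron and dividing cell sum lay between the end ages, with 126 to 136 CPM at 9 months and 133 to 140 CPM at 15 months. It was 183 to 190 CPM at 2 months and 119 to 125 CPM at 24 months. Liver markers stood at 0.529 times, but their sum ran from 1.68 to 197 CPM within 2 months alone. Choroid plexus markers summed to 42.0 CPM in 9 month replicate 1, against 529 to 568 CPM in the other 9 month libraries. The part of these differences in the members' levels was not tested.

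The libraries held 17800113 to 31261121 counts, and the members had between 52 and 13050 counts in any one library. Replicates 2 to 5 at 30 months stood apart from all others in how levels depended on the GC content of the gene. Their median log2 deviation from the younger libraries was 1.11 to 2.02 higher in the 10% of genes richest in GC than in the 10% poorest, against 0.13 in 30 month replicate 1 and -0.25 to 0.147 in the 20 younger libraries. Results at 30 months are therefore given with and without these 4 libraries. Within the younger ages the same measure ran from -0.25 to -0.0856 at 15 months, below every library of 2, 9 and 24 months. It ran from -0.0181 to 0.0785 at 2 months, -0.064 to 0.12 at 9 months and 0.0495 to 0.147 at 24 months. The part of this difference in the members' levels was not tested. At 15 months replicates 4 and 5 stood apart from replicates 1 to 3 in the members themselves, and each library is printed so that this can be seen. Since the members were chosen by their levels at 2, 9, 15 and 24 months, these levels are descriptions and carry no test.

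The member with the largest ratio was Sdf2l1, an ER-resident partner of BiP and its J-domain co-chaperones (ENSMUSG00000022769, chr16:17130138-17132383, minus strand, GRCm38). Its levels were 5.64, 5.45, 5.63, 5.83 and 6.03 CPM at 2 months, 12.1, 14.1, 9.33, 10.4 and 8.32 CPM at 9 months, and 11.01, 9.64, 8.51, 6.29 and 5.13 CPM at 15 months. At 24 months they were 6.71, 6.88, 6.48, 5.88 and 6.77 CPM, and at 30 months 6.47, 6.11, 6.95, 11.9 and 11.7 CPM. Every 9 month library lay above every 2 and 24 month library, whereas at 15 months replicates 1 to 3 lay above and replicates 4 and 5 lay within or below the range of those ages. The mean of 9 and 15 months was 1.55 times that of 2 and 24 months.

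Hspa5, which encodes BiP, the main chaperone of the ER lumen, was the most abundant member per kilobase of exon (ENSMUSG00000026864, chr2:34771970-34777547, plus strand). It reached 252.6, 276, 273, 279 and 283 CPM at 2 months, 475, 494, 404, 498 and 394 CPM at 9 months, and 536, 467, 448, 297 and 296 CPM at 15 months. At 24 months it reached 342, 301, 326, 312 and 337 CPM, and at 30 months 271, 221.1, 205, 283 and 194 CPM. The 15 month libraries thus held both the highest value of all 25, in replicate 1, and values below every 24 month library, in replicates 4 and 5. Group means were 273 ± 11.9, 453 ± 50.3, 409 ± 108, 323.5 ± 17.3 and 235 ± 39.9 CPM from 2 to 30 months (SD, n = 5 each), and the 9 and 15 month mean was 1.45 times the 2 and 24 month mean.

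Creld2, Pdia4 and Manf divided the 15 month libraries in the same way. Creld2, a secreted ER protein with EGF-like repeats that is induced by ER stress, had 10.8, 10.8, 11.1, 12.8 and 11.8 CPM at 2 months and 19.3, 20.2, 16.1, 17.8 and 15.8 CPM at 9 months. It had 17.8, 15.0, 15.4, 10.6 and 11.8 CPM at 15 months, 11.4, 12.1, 12.4, 12.9 and 11.3 CPM at 24 months, and 10.8, 12.03, 11.8, 17.8 and 10.9 CPM at 30 months. The 9 month libraries and 15 month replicates 1 to 3 were all above the 2 and 24 month libraries, while 15 month replicates 4 and 5 were not. The disulfide isomerase gene Pdia4 averaged 41.4 ± 2.26, 61.5 ± 7.63, 54.4 ± 12.2, 43.5 ± 1.75 and 46.3 ± 6.31 CPM from 2 to 30 months (SD, n = 5 each), with 69.5, 61.0, 57.6, 41.1 and 42.8 CPM in the 15 month libraries. Manf, whose product is a secreted ER protein that binds BiP, averaged 29.0 ± 1.64, 40.9 ± 5.01, 35.9 ± 6.76, 29.3 ± 1.24 and 33.8 ± 5.13 CPM, with 44.6, 40.1, 36.5, 29.2 and 29.2 CPM at 15 months. In both genes 15 month replicates 4 and 5 were again at the level of the 2 and 24 month libraries.

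The 2 J-domain co-chaperones among the members had smaller ratios. Dnajc3, the lumenal protein known as p58IPK, averaged 70.9 ± 3.16, 88.5 ± 7.80, 88.6 ± 9.53, 76.9 ± 3.18 and 49.4 ± 17.4 CPM from 2 to 30 months. Dnajc1, an ER membrane protein that binds BiP through its J domain, averaged 23.8 ± 1.02, 28.8 ± 2.11, 28.7 ± 2.27, 24.2 ± 1.58 and 21.4 ± 4.23 CPM (SD, n = 5 each). In these co-chaperone genes the 15 month mean was as high as the 9 month mean, at ratios of 1.001 for Dnajc3 and 0.996 for Dnajc1, while in Sdf2l1 it was 0.748 of the 9 month mean.

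Xbp1, the transcription factor whose messenger RNA is spliced by the ER sensor IRE1, had 67.7, 65.9, 64.8, 67.4 and 64.3 CPM at 2 months and 96.9, 107, 86.9, 93.0 and 80.7 CPM at 9 months. It had 103, 87.0, 86.2, 69.6 and 67.3 CPM at 15 months, 66.01, 60.3, 66.4, 71.4 and 64.4 CPM at 24 months, and 69.9, 75.1, 72.2, 95.02 and 99.2 CPM at 30 months. No 9 month library overlapped those of 2 and 24 months, and 30 month replicates 4 and 5 lay within the 9 month range. Counts per gene do not separate the spliced from the unspliced Xbp1 RNA.

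**Figure D1:**
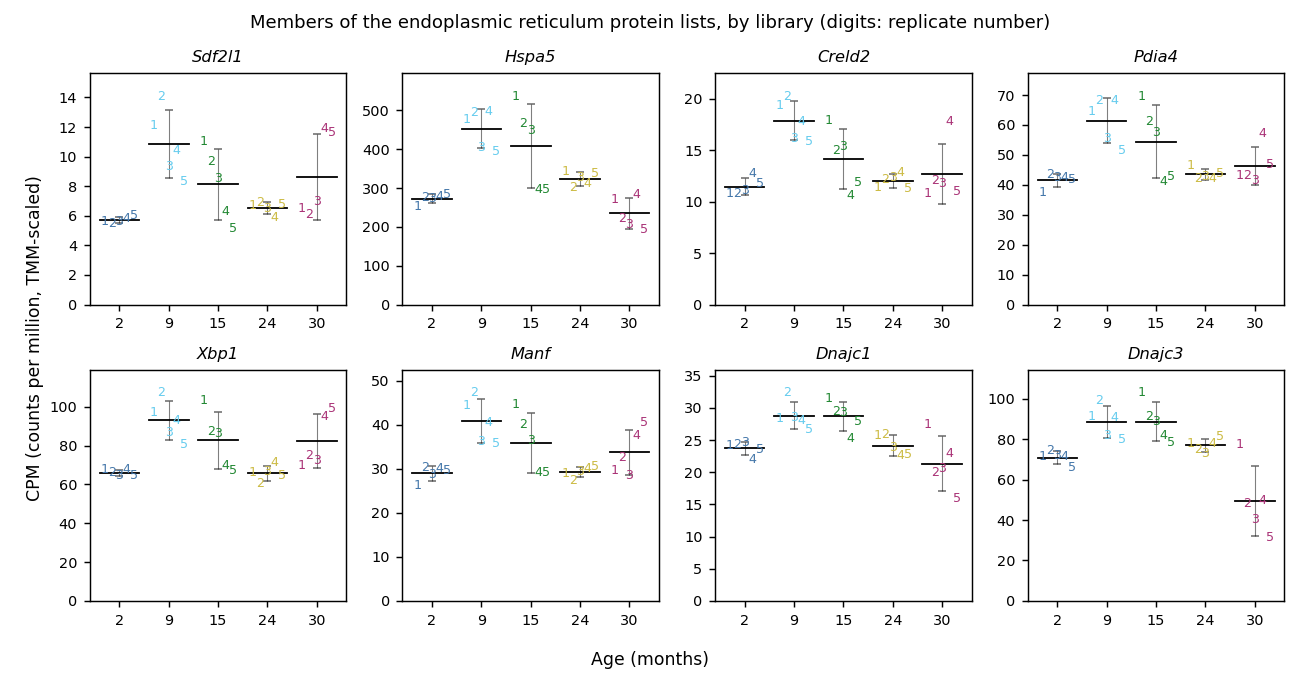
Level in CPM (TMM-scaled, linear axis from 0) of the 8 ER members in each library, by age in months. Digits are replicate numbers, horizontal lines group means and bars 1 SD (n = 5). In Hspa5 the 15 month digits 4 and 5 sit at 297 and 296 CPM, apart from digits 1 to 3 at 448 to 536 CPM.

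The promoters of 3 ER members carried a sequence on which ATF6 and XBP1 are known to act. This ER stress response element consists of CCAAT, 9 bases of any kind and CCACG, and was searched on both strands of the 300 base windows that RefSeq gives around gene starts, from 250 bases before the start (GRCm38.p6). A window was found for 21 of the 26 members. The element was present in Hspa5, Creld2 and Dnajc3, that is in 3 of 21 members, and in 37 of 27025 genes, or 0.137%, of the whole table. The whole table was not limited to protein-coding genes or by level, as the members were. The other ER members with a window, Sdf2l1, Pdia4, Xbp1 and Dnajc1, had no match, and Manf had no window. The 3 matches are shown with 20 bases on each side, because the choice by level did not use sequence. All are written 5′ to 3′ along the plus strand, with the fixed bases in capitals; in Creld2 the element reads along the other strand.
Hspa5, chr2:34772005-34772063: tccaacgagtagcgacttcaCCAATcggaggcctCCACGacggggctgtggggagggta
Creld2, chr15:88819500-88819558: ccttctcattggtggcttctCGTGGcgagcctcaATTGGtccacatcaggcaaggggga
Dnajc3, chr14:118937807-118937865: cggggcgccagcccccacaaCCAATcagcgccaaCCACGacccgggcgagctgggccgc
The matches began 65, 126 and 105 bases before the RefSeq start in Hspa5, Creld2 and Dnajc3. The related elements ERSE-II (ATTGG, 1 base of any kind, CCACG), the core TGACGTGG bound by XBP1, and the amino acid response sites TGATGNAAT and TTGCATCA were in 0 of the 21 member windows, and in 0.0444%, 0.714%, 1.08% and 1.03% of all genes. A match describes the letters in the window and says nothing of whether a factor is bound.

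The wider list of ER chaperones and disulfide enzymes was chosen, as all lists here, with earlier results of these data known, and is given by counts. Of its 34 genes, 30 were at the required level and 7 were members. Both the 9 and 15 month means were above both the 2 and 24 month means in 19 of the 30. This share was 63.3%, against 20.2% of the 11485 genes. The 7 members met the condition through the rule itself, so the share is a description. The median ratio of the list was 1.09, against 0.998 for all 11485. Pdia6, a disulfide isomerase gene, had a ratio of 1.2497 but a 15 month mean only 1.097 times the 24 month mean, and so was no member. Hsp90b1, which encodes the ER form of Hsp90, had a ratio of 1.154. In contrast Txndc5, P4hb and Sil1 had ratios of 0.942, 0.957 and 0.913, so that not all of the list shared the pattern.

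Beyond the chaperones the ER lists held few members or none. Of 15 genes for sensors and transcription factors of the unfolded protein response only Xbp1 was a member, and the median ratio was 0.997. The sensor genes Ern1, Eif2ak3 and Atf6 had ratios of 0.983, 1.02 and 1.07. Lists of ER-associated degradation, N-glycosylation, translocation and signal peptidase, and transport from the ER to the Golgi held 0 members, with median ratios of 1.01, 0.994, 1.01 and 1.02. The 22 genes of the ATF4 and amino acid response, another arm of the same stress response, also held 0 members and had a median ratio of 0.964.

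Homer1, a scaffold protein of the postsynaptic density whose short form is made in response to neuronal activity, had the second largest ratio, 1.53 (ENSMUSG00000007617, chr13:93299635-93405129, plus strand). Its levels were 217, 188, 213, 228 and 245 CPM at 2 months, 306, 386, 299, 361 and 294 CPM at 9 months, and 363, 331, 319.5, 197 and 203 CPM at 15 months. At 24 months they were 169, 178, 176, 204 and 173 CPM, and at 30 months 164, 138, 142, 149.7 and 95.6 CPM. Homer1 was higher in the 9 month libraries and in 15 month replicates 1 to 3 than in every other library, and 15 month replicates 4 and 5 lay within the range of 2 and 24 months. Counts per gene do not separate the short form of Homer1 from the long forms.

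Homer1 was the only member from the list of 20 immediate early genes, whose 19 genes at the required level had a median ratio of 0.97. Several genes of that list varied more between libraries of 1 age than between ages. Fos, for instance, had 10.1, 14.0, 59.0, 64.4 and 59.3 CPM at 2 months. Egr3, a zinc finger transcription factor, came nearest to membership, with a ratio of 1.38 and a 15 month mean 1.118 times the 24 month mean.

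Further members code for proteins of neuronal signalling. Pcsk1, the convertase that cuts neuropeptide precursors, had 43.2, 43.3, 47.2, 48.1 and 50.6 CPM at 2 months, 55.5, 59.5, 54.1, 64.6 and 60.5 CPM at 9 months, and 70.3, 60.7, 64.1, 45.1 and 46.8 CPM at 15 months. It had 43.9, 48.6, 44.5, 49.3 and 47.7 CPM at 24 months, and 40.0, 25.99, 26.5, 28.1 and 13.8 CPM at 30 months. The 9 month libraries were without exception above those of 2 and 24 months, and 15 month replicates 4 and 5 were not. None of the 20 neuropeptide precursor genes at the required level was a member, and their median ratio was 0.945. Crem, a transcription factor gene of the cyclic AMP response, averaged 15.9 ± 1.55, 20.3 ± 0.878, 19.8 ± 2.78, 17.1 ± 1.49 and 10.6 ± 1.87 CPM from 2 to 30 months, and Spred1, an inhibitor of Ras to ERK signalling, averaged 280.1 ± 12.8, 348 ± 20.8, 332 ± 29.4, 264 ± 21.4 and 184 ± 50.2 CPM (SD, n = 5 each).

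Among the 21 member windows the full cyclic AMP response element, TGACGTCA, was found in Pcsk1 alone, beginning 78 bases before the start, and in 2.03% of all genes. It is shown in capitals with 20 bases on each side, since another member, Crem, encodes a factor known to bind this element.
Pcsk1, chr13:75089759-75089806: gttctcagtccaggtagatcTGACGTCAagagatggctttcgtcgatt
The match in Pcsk1 overlapped no other motif searched. The E-box CACGTG, a site known to be bound by the product of the member Arntl, was in 2 of 21 member windows, Lonrf3 and Dnajc1, or 9.52%, close to the 8.09% of all genes.

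Chordc1, a co-chaperone of cytosolic Hsp90, was the only member of the list of cytosolic and mitochondrial heat shock genes. Its levels were 57.3, 55.8, 58.9, 58.1 and 65.7 CPM at 2 months, 82.0, 84.9, 77.1, 91.3 and 76.3 CPM at 9 months, and 84.5, 73.1, 74.0, 61.6 and 63.6 CPM at 15 months. At 24 months they were 53.4, 58.8, 57.3, 59.5 and 58.5 CPM, and at 30 months 53.1, 25.5, 23.4, 28.4 and 17.8 CPM. All 9 month libraries and 15 month replicates 1 to 3 exceeded the 2 and 24 month libraries. Of the 23 heat shock genes at the required level, 21 had a ratio above 1, a share of 91.3% against 48.8% of all 11485 genes, and the median ratio was 1.08. By this looser measure the share in the ER chaperone list was 73.3%. Both the 9 and 15 month means were above both the 2 and 24 month means in 12 of the 23, or 52.2%, against 20.2% of all 11485 genes. The inducible Hsp70 genes Hspa1b and Hspa1a were too low for the rule and had ratios of 2.03 and 1.59. Hsph1, Dnaja4, Hspa8 and Dnajb4 had ratios of 1.16 to 1.19.

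The start of Chordc1 carried the heat shock element, searched as GAA, 2 bases of any kind, TTC, 2 bases of any kind and GAA on both strands. It occurred in 1 of 21 member windows and in 0.662% of all genes. The 3 matches in Chordc1 overlap each other across the start site, from 4 bases before it to base 19, and are shown in capitals after 20 bases of upstream sequence.
Chordc1, chr9:18292243-18292285: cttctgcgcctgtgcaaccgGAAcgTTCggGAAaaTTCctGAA

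Arntl, which encodes the clock transcription factor BMAL1, was the single member of the circadian list. It had 38.8, 35.5, 37.6, 35.2 and 37.5 CPM at 2 months, 44.2, 50.5, 44.9, 46.4 and 46.0 CPM at 9 months, and 44.5, 46.6, 42.4, 39.2 and 42.6 CPM at 15 months. It had 36.2, 39.4, 38.0, 36.9 and 36.2 CPM at 24 months, and 41.8, 38.1, 40.5, 40.5 and 33.5 CPM at 30 months. All 9 month libraries lay above all 2 and 24 month libraries, and the 15 month libraries did so except replicate 4. Of the 19 circadian genes, all at the required level, 11 had a ratio above 1, a share of 57.9% against 48.8% of all 11485 genes, and the median ratio was 1.03. Per2 had the highest ratio, 1.21, and Ciart, Dbp and Nr1d1 the lowest, 0.631, 0.683 and 0.763. Hlf, Tef, Nr1d2 and Per3 lay between, at 1.09, 1.03, 0.997 and 0.992. Dbp averaged 44.7 ± 3.58, 25.6 ± 2.37, 30.0 ± 3.50, 36.8 ± 2.43 and 39.8 ± 8.66 CPM from 2 to 30 months (SD, n = 5 each). The time of day at which the tissue was taken is not given in the sources used here, and its part in the members' levels was not tested.

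The remaining 12 members, like Pcsk1, Crem and Spred1, belong to no list, and 11 of them are given here. Slc5a3, the sodium-coupled carrier that takes up the osmolyte myo-inositol, had 56.7, 54.0, 59.0, 58.2 and 55.8 CPM at 2 months, 71.8, 75.7, 68.3, 85.9 and 76.7 CPM at 9 months, and 81.3, 70.5, 74.7, 60.3 and 58.6 CPM at 15 months. It had 44.2, 46.7, 45.6, 58.2 and 55.8 CPM at 24 months, and 53.6, 31.4, 23.9, 28.3 and 18.9 CPM at 30 months. Slc5a3 was higher in every 9 month library than in any 2, 24 or 30 month library. The kinase gene Map3k19, the lowest member per kilobase of exon, had 12.4, 13.04, 10.8, 9.53 and 8.51 CPM at 9 months and 13.3, 12.3, 12.8, 9.57 and 8.85 CPM at 15 months, against 6.47 to 8.94 CPM at 2 months and 8.62 to 9.48 CPM at 24 months. Its lowest library at each middle age lay within the range of the end ages.

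Lrrk2, a large kinase whose gene is mutated in familial Parkinson's disease in humans, averaged 86.0 ± 4.66, 113 ± 8.52, 114 ± 15.0, 88.6 ± 4.95 and 49.6 ± 25.8 CPM from 2 to 30 months (SD, n = 5 each). Vps13a, a lipid transfer protein mutated in chorea-acanthocytosis in humans, averaged 94.9 ± 3.53, 114 ± 8.58, 115 ± 8.41, 85.6 ± 5.15 and 35.1 ± 33.3 CPM. For both genes every library of 9 and 15 months was above every library of 2 and 24 months.

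Among the others, Tubd1, encoding delta tubulin, averaged 4.53, 6.57, 5.65, 4.71 and 3.94 CPM from 2 to 30 months, and Cdyl2, a chromodomain protein gene, 31.9, 40.6, 36.8, 29.6 and 31.6 CPM. Iqgap2, a scaffold of the actin cytoskeleton, averaged 40.3, 48.9, 50.7, 39.5 and 23.6 CPM, and Sfpq, an RNA-binding splicing factor, 225, 275, 268, 220.7 and 195 CPM. Lonrf3, a RING finger protein gene, averaged 7.94, 9.91, 9.42, 8.11 and 5.07 CPM, and Ipcef1, whose product binds cytohesins, 122, 148, 143, 124 and 75.4 CPM. Zfp831, a zinc finger gene, was the member with the least spread at 15 months relative to its level. It had 40.3, 44.1, 44.0, 42.4 and 43.4 CPM at 9 months and 43.2, 43.2, 43.6, 41.0 and 44.4 CPM at 15 months, against 33.5 to 37.6 CPM at 2 months and 36.1 to 38.2 CPM at 24 months, with no overlap.

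**Figure D2:**
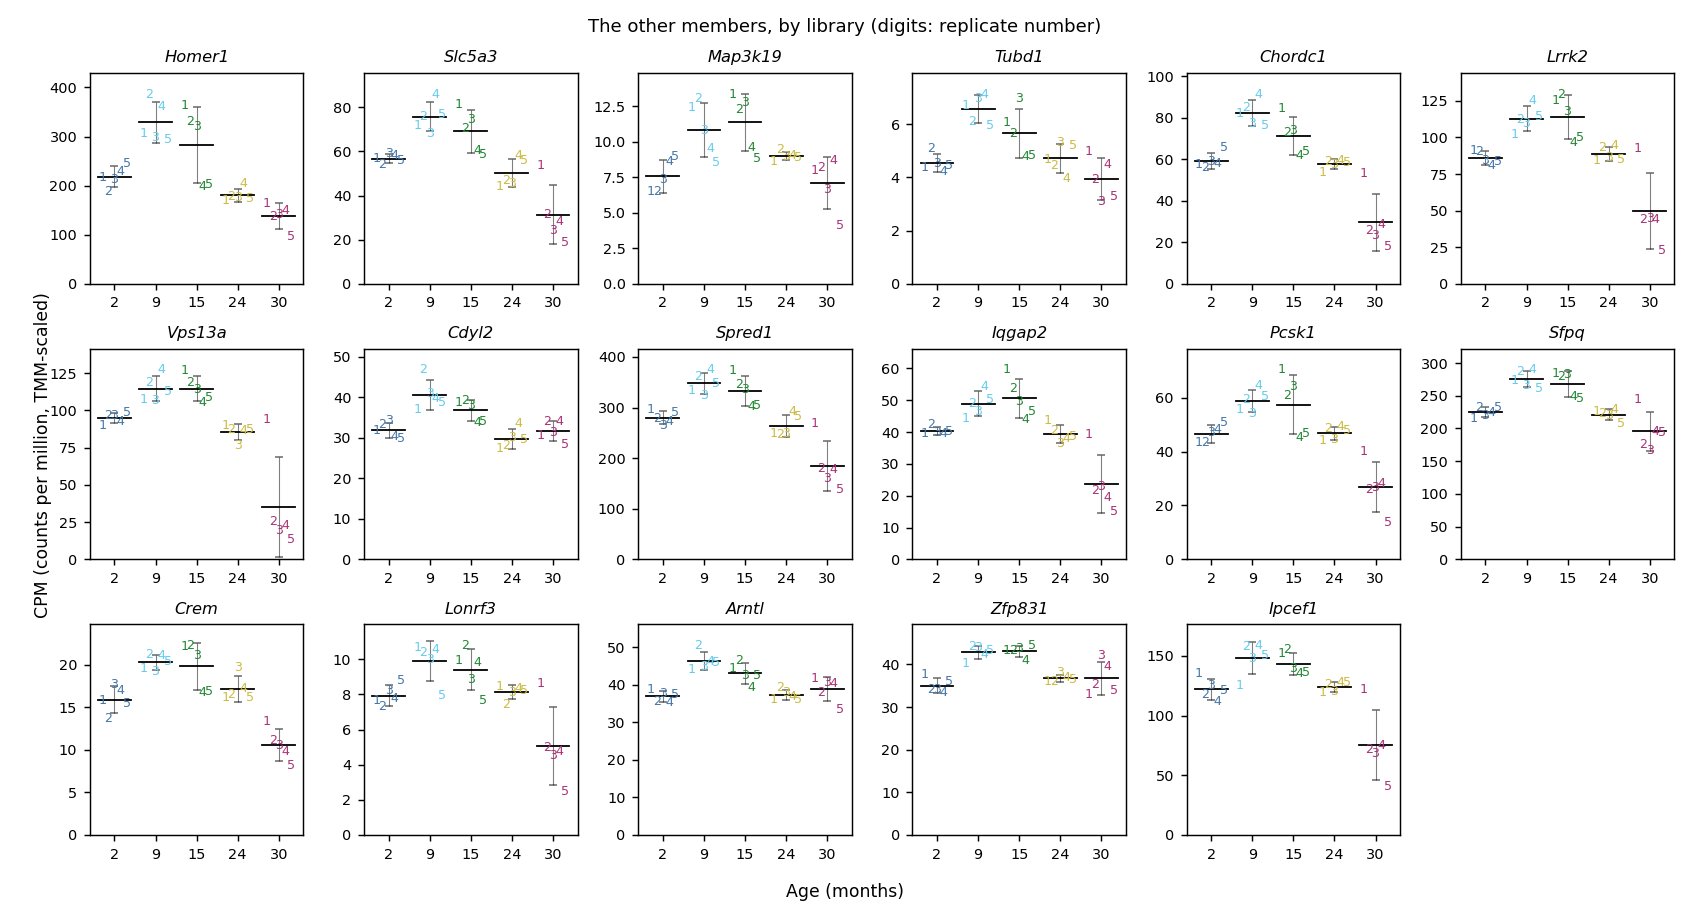
Level in CPM (TMM-scaled, linear axes from 0) of 17 other members in each library, by age in months, with digits for replicate numbers, lines for means and bars for 1 SD (n = 5). In Vps13a the 30 month digit 1 sits at 94.1 CPM, apart from digits 2 to 5.

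Just inside the limit lay Dnajc3 and Arntl, whose smallest ratios of a 9 or 15 month mean to a 2 or 24 month mean were 1.152 and 1.153. The closest genes outside it were Fgf10, Cobl and Cys1, at 1.147, 1.146 and 1.144. In 20 of the 26 members the 15 month mean was below the 9 month mean. The 24 month mean was above the 2 month mean in 17 members and below it in 9. The next counts use the levels that the rule chose on, and are not given for all genes. All 9 month libraries were above all 2 month libraries in 23 members and above all 24 month libraries in 21, but the 15 month libraries cleared each of these ages completely in 11 members only.

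The lower number goes with the split within 15 months. Counted over the members, 15 month replicates 1, 2 and 3 each exceeded every 2 and 24 month library in 26 of 26, whereas replicates 4 and 5 did so in 11 and 10. The 9 month replicates 1 to 5 did so in 24, 26, 25, 26 and 23 members. These counts too rest on levels that the rule used, with no share over all genes beside them. The SD at 15 months was the largest of the 4 ages in 22 members. Set against their own 15 month mean, 26, 26, 21, 1 and 1 of the 26 members were higher in replicates 1 to 5, while among all 11485 genes the share was 41.4% to 58.1% in these libraries. The exceptions were Vps13a, Iqgap2, Lonrf3, Arntl and Ipcef1, which were below their mean in replicate 3, and Lonrf3 and Zfp831, which were above it in replicates 4 and 5.

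**Figure D3:**
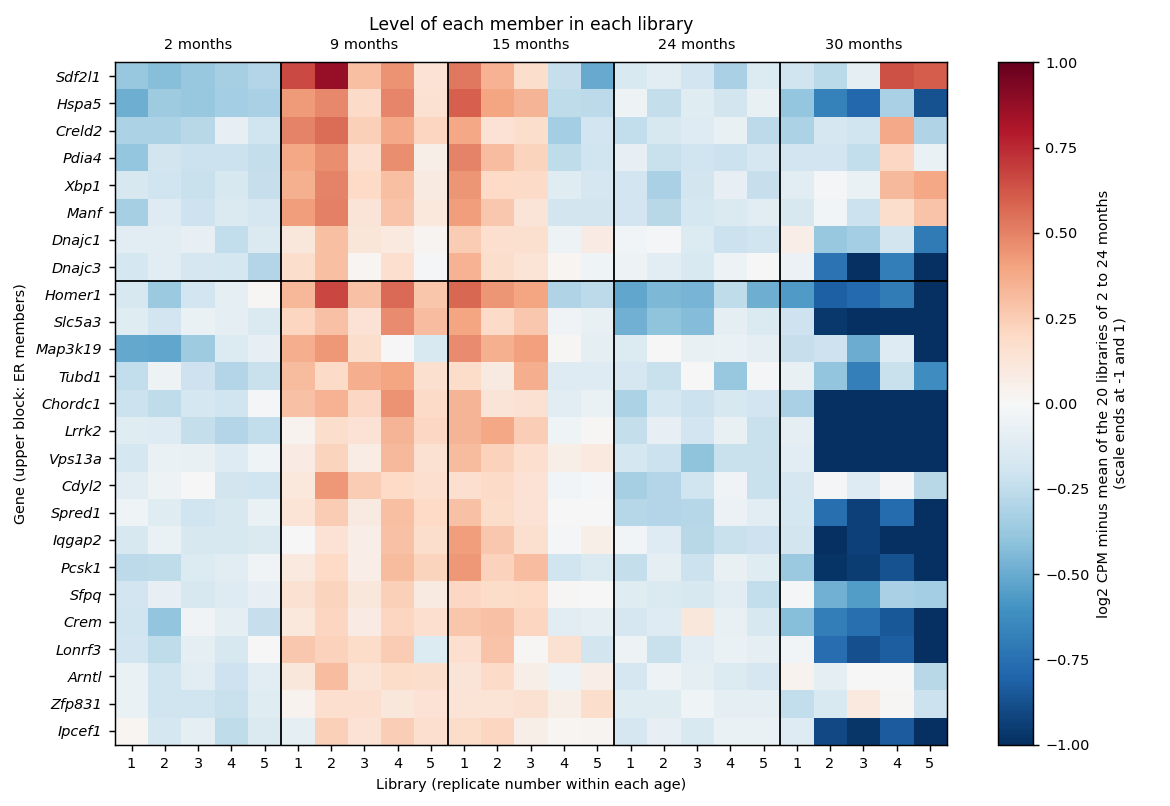
Log2 CPM of 25 members (rows, ER members above the line) in each of the 25 libraries (columns, by age and replicate), as the difference from the mean of the 20 libraries of 2 to 24 months; red is higher, blue lower, and colours end at -1 and 1. The 9 month columns and the first 3 of 15 months are red in nearly all rows, and 15 month columns 4 and 5 are pale or blue.

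**Figure D4:**
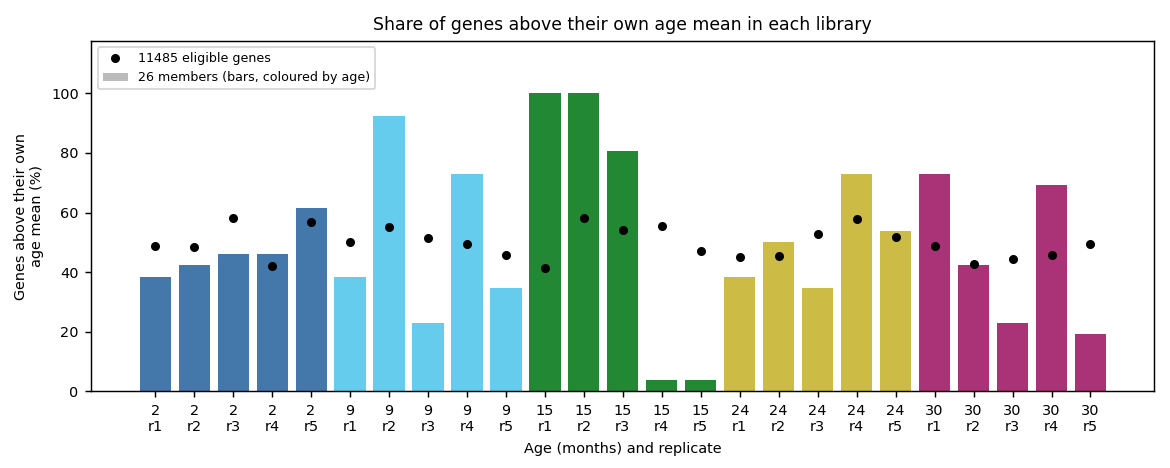
Share (%) of the 26 members (bars) and of all 11485 genes at the required level (points) whose level in a library was above the mean of that library's own age. The bars at 15 months fall apart into replicates 1 to 3, with 21 to 26 of 26 members, and replicates 4 and 5, with 1 of 26 each, while the points stay between 41.4% and 58.1%.

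Because the rule works on means, membership depended on these libraries. Without 15 month replicates 4 and 5, a choice made after their values were seen, the rule found 69 genes, all 26 members among them. Without replicates 1 to 3 it found 1 gene, Zfp831. With single libraries left out it found 16 genes without 15 month replicate 1 and up to 38 without replicate 4 or 5.

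Other measures moved with the same split. The immediate early list, leaving out Homer1, had median log2 deviations from the 15 month means of 0.12, 0.18, 0.44, -0.35 and -0.21 in replicates 1 to 5. Egr3 reached 50.9, 53.8, 50.3, 31.1 and 35.6 CPM in these libraries. The heat shock list without Chordc1 had median deviations of 0.09, 0.05, 0.01, -0.09 and -0.10. The ER chaperone list without its members had 0.064, 0.034, 0.031, -0.031 and -0.035. A list of glucocorticoid response genes had 0.065, 0.011, 0.063, -0.027 and -0.083. The list of unfolded protein response sensors and factors without Xbp1 had 0.028, 0.012, 0.012, -0.012 and -0.054. In the translocation and ER to Golgi lists replicates 4 and 5 were also lowest. The cholesterol synthesis list was divided in the opposite direction, with -0.075, -0.024, -0.031, 0.041 and 0.057. So were the cold-inducible RNA-binding genes Cirbp and Rbm3, with -0.18, -0.043, 0.02, 0.14 and 0.056. The circadian list without Arntl showed no such division, with 0.016, -0.011, 0.017, -0.021 and -0.005, although Dbp by itself ran the other way, with 25.9, 28.4, 29.0, 32.0 and 34.9 CPM. The measure of dependence on GC content was -0.25, -0.126 and -0.099 in replicates 1 to 3, below the -0.0856 and -0.0971 of replicates 4 and 5, by a narrow margin between replicates 3 and 5. At 2 months the immediate early list without Homer1 was divided more widely, with -0.67, -0.64, 0.40, 0.40 and 0.53 in replicates 1 to 5. There 10, 11, 12, 12 and 16 of the 26 members were above their own 2 month mean. In the 2 month titles the numbers of replicates 1 and 2 are consecutive, as are those of replicates 3 to 5, with a gap between. The labels do not say what the numbers stand for. The part of the immediate early genes, the heat shock genes, the other lists and the GC content in the members' split was not tested.

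Across single libraries the 6 members most like Sdf2l1 were all ER members. After age means were taken away, the correlation of log2 CPM with Sdf2l1 over the 20 libraries of 2 to 24 months was 0.90 for Manf, 0.89 for Hspa5, 0.88 for Pdia4, 0.87 for Xbp1 and 0.83 for Dnajc3, which ranked 1, 3, 4, 6 and 15 among 11484 genes. Creld2 followed at 0.83, then Map3k19 and Homer1 from outside the ER lists at 0.82 and 0.81, while the ER member Dnajc1 had 0.67. The median was 0.51 over the members below the first 5 and -0.006 over all genes. These are descriptions over libraries that share an age mean, and the 15 month split contributes to them. Without the 15 month libraries, over 15 libraries, the values were 0.77, 0.71, 0.73, 0.68 and 0.69 for the same 5 genes. Map3k19 and Lonrf3 reached 0.74 and 0.58 in these 15 libraries, the median of all members other than Sdf2l1 was 0.39, and the lowest member was Lrrk2 at -0.30. The lowest member over all 20 libraries was Zfp831, at -0.06.

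Some properties that the choice did not use can be set beside those of all genes. The members' median GC content, in the longest transcript, was 46.7% against 49.7% in all 11485 genes, and their median exon length was 5.69 kb against 4.96 kb. They lay on 17 chromosomes, with at most 4 on 1 of them, chromosome 2. Per kilobase of exon the mean level over the 20 younger libraries ran from 1.99 CPM in Map3k19 to 86.2 CPM in Hspa5. Of the 26 members, 9 share exon bases with other annotated genes, at most 9.25% of their exons, in Manf, followed by 8.01% in Crem and 6.43% in Dnajc1. Whether counting used the strand is not stated, so reads in these bases may belong to the partner gene.

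The 30 month libraries took no part in the choice of members, but the levels they are compared with did. Each gene at 30 months was first compared with the equal-weight mean of 2, 9, 15 and 24 months. That mean holds the 9 and 15 month levels that the rule required to be high, so a member at its 2 and 24 month level scores as lower. A comparison with the mean of 2 and 24 months alone, which the rule required to be low and which was added after the values were seen, is therefore given with it. In edgeR's quasi-likelihood test over all 25 libraries, with Benjamini-Hochberg adjustment over 17799 genes, 18 of the 26 members were lower at 30 months and 0 were higher at an adjusted p under 0.05. At an unadjusted p under 0.05, and in DESeq2, 0 members were higher as well. The background is large, since 31.9% of all genes tested were lower and 34.2% higher. Of the 18, 3 were ER members and 15 were others.

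Against the mean of 2 and 24 months, 15 members were lower and 3 higher in edgeR, where 30.8% of all genes were lower and 30.5% higher. The 15 lower were 2 ER members and 13 others, and the 3 higher were Sdf2l1, Xbp1 and Manf. The choice of low end levels works against a lower call and for a higher one here. Members called lower in the first comparison and not in this one were Map3k19, Tubd1 and Dnajc1, at log2 fold changes of -0.19, -0.21 and -0.15.

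The largest fall was in Vps13a, which had 94.1, 25.5, 19.7, 22.9 and 13.3 CPM at 30 months, against group means of 94.9, 114, 115 and 85.6 CPM at 2, 9, 15 and 24 months. Replicate 1 lay within the range of the younger libraries and replicates 2 to 5 lay far below it. Its log2 fold change was -1.52 ± 0.26 against the 4 younger ages (SE, adjusted p = 2.19e-05 in edgeR) and -1.34 ± 0.27 against 2 and 24 months (adjusted p = 0.000191). Chordc1, Lrrk2, Slc5a3, Pcsk1, Iqgap2 and Homer1 were also lower, with log2 fold changes of -1.15, -0.98, -0.97, -0.93, -0.89 and -0.82, and adjusted p-values of at most 1.53e-05 in edgeR. Against 2 and 24 months these 6 genes had -0.96, -0.80, -0.75, -0.77, -0.74 and -0.51, with adjusted p-values of at most 0.00162. In Chordc1, Pcsk1 and Homer1 replicate 1 was also below every 2 and 24 month library, while in Lrrk2, Slc5a3 and Iqgap2 it was within their range.

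The ER members divided. Hspa5 fell by 0.59 (log2, SE 0.11, adjusted p = 4.42e-05 in edgeR), with 3 of 5 libraries at 30 months below all of the 20 younger ones, and Dnajc3 and Dnajc1 fell by 0.69 and 0.28 (adjusted p = 1.36e-05 and 0.00211). Sdf2l1, Xbp1, Manf, Pdia4 and Creld2 did not pass the test, at log2 fold changes of 0.20, 0.13, 0.03, -0.08 and -0.09. Against 2 and 24 months Hspa5 and Dnajc3 were lower by 0.32 and 0.56 (adjusted p = 0.0178 and 0.000377 in edgeR), and Sdf2l1, Xbp1 and Manf higher by 0.51, 0.34 and 0.23 (adjusted p = 0.0104, 0.00228 and 0.0359). With 1 library left out of that comparison, the call was lost in Hspa5 without 30 month replicate 3 or 5 and in Sdf2l1 without replicate 4 or 5, at adjusted p-values of up to 0.0839 and 0.0767 in edgeR. Manf lost its call in 11 of 25 such fits, with an adjusted p of up to 0.184 without 30 month replicate 5, and outside the ER genes Sfpq lost its call without 30 month replicate 2 or 3 (up to 0.0847). In Sdf2l1, Xbp1 and Manf 30 month replicates 4 and 5 were above all 24 month libraries, and replicate 1 was within the range of 2 and 24 months. Also above every 2 and 24 month library were replicates 2 and 3 in Xbp1, replicate 2 in Manf and replicate 3 in Sdf2l1. Of the 34 tested genes of the ER chaperone list, 9 were higher and 15 lower at 30 months. The other uncalled members were Cdyl2, Arntl and Zfp831, at -0.10, -0.05 and -0.08.

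**Figure D5:**
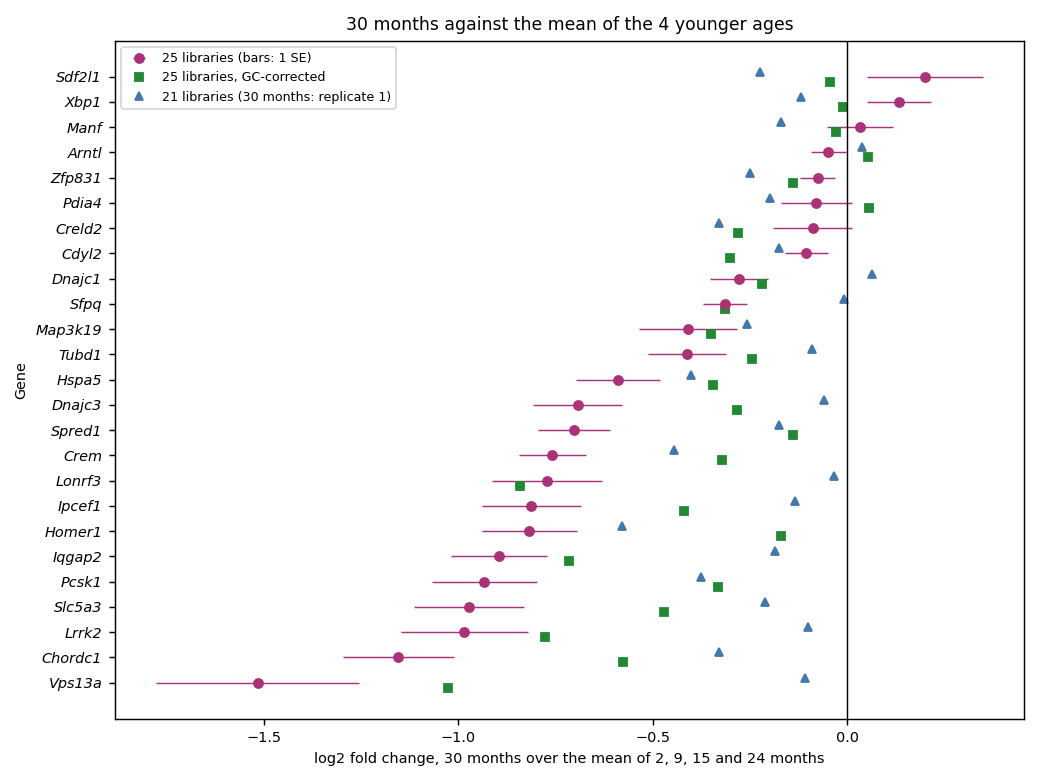
Log2 fold change of 25 members at 30 months over the mean of 2, 9, 15 and 24 months, in all 25 libraries (circles, bars 1 SE), after GC correction (squares) and with replicate 1 as the only 30 month library (triangles). Circles reach from -1.52 in Vps13a to 0.20 in Sdf2l1, and the triangles lie between -0.58 and 0.06.

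Without the 4 libraries that stand apart all 18 calls were lost, and the fold changes were smaller. With replicate 1 as the only 30 month library, assumed to vary like the other groups, Zfp831, which is not among the 18, was the 1 member called lower, at a log2 fold change of -0.25 (adjusted p = 0.0153 in edgeR), and 0 were higher. That fit called 1 member lower and 0 higher, beside 1.77% of 19208 genes lower and 3.78% higher (adjusted p under 0.05). At an unadjusted p under 0.05 in edgeR it had 6 members lower and 0 higher, counts not given for all genes. Log2 fold changes in that fit were -0.11 in Vps13a, -0.10 in Lrrk2, -0.21 in Slc5a3, -0.18 in Iqgap2, -0.33 in Chordc1, -0.38 in Pcsk1, -0.58 in Homer1 and -0.40 in Hspa5. Against 2 and 24 months the same fit called 0 members lower and 0 higher, beside 1.37% and 3.42% of genes (adjusted p under 0.05). At an unadjusted p under 0.05 in edgeR, 1 member was lower and 2 were higher in that comparison, counts again not given for all genes. There Vps13a, Lrrk2 and Slc5a3 had 0.06, 0.09 and 0.01, Homer1 -0.27, Chordc1 -0.13, and Sdf2l1, Xbp1 and Manf 0.08, 0.09 and 0.03. When library offsets by GC content were added to the fit of all 25 libraries, 20 members were lower and 0 higher (0 also at an unadjusted p under 0.05 in edgeR), against 23.9% and 27.3% of genes. Of these 20, 17 were among the 18 above, and Homer1 was lost, at -0.17 (adjusted p = 0.247). The 3 gained were Creld2, Cdyl2 and Zfp831, at -0.28, -0.30 and -0.14 (adjusted p = 0.0302, 0.00042 and 0.00749 in edgeR). Against 2 and 24 months the same correction left 11 members lower and 3 higher, against 22.7% and 25.2% of genes. No longer called lower were Hspa5, Homer1, Pcsk1 and Spred1, at -0.09, 0.12, -0.20 and -0.001 (adjusted p = 0.535, 0.472, 0.1 and 0.989 in edgeR). The 3 higher were Arntl, Pdia4 and Xbp1, and Sdf2l1 and Manf no longer passed (adjusted p = 0.139 and 0.128). In 30 month replicate 1 alone, 10 of the 26 members were below both the 2 and the 24 month mean, a count not given for all genes.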

How the data were processed

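The 25 libraries were made from total RNA with the TruSeq RNA kit, per the labels' protocols. The submitters' processing notes name CASAVA 1.7, the aligner STAR 2.4.1d, the build GRCm38 and featureCounts 1.4.6-p4, and the authors deposited raw counts per Ensembl gene, 17800113 to 31261121 per library. Annotation release, strand setting and read filters are not given in the sources used here. Counting error for 1 library was 0.947% to 10.8% of a member's level at an age, and exceeded the SD among the 5 libraries in 13 of 130 such groups. The deposited RPKM values were not used, because within a gene they do not follow the library totals of the counts.

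Of 47729 genes, 47310 matched GENCODE M21 by identifier and 419 did not. That annotation gave symbols, gene types, coordinates, exon lengths and GC content. TMM-scaled CPM came from edgeR 4.0.16 in R 4.3.3, and per-library deviations used log2(CPM + 0.5). The 30 month comparison was a robust quasi-likelihood fit on the deposited counts with a mean per age, after filterByExpr, which left 17799 genes and all 26 members. Adjusted p-values are two-sided, by Benjamini and Hochberg over all genes tested, at 0.05. The fit was tested on simulated counts. Alternatives were DESeq2 1.42.0, other scalings, no filter, fewer libraries, 2 and 24 months alone as the reference (added after the values were seen), offsets in 20 GC bins, the liver gene Alb as a covariate and other settings of the rule. Genes named are 25 members (1 member, counted with the rest, is not reported here), the 3 genes closest outside the rule, the 5 members most like Sdf2l1, and genes of the lists. List genes and Egr3, Fos and Dbp were picked after their values were seen. The members, and the 15 lists with 348 entries, were chosen with earlier results of these data known. Replicates are numbered in accession order and pair nothing.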

Additional observations from a re-analysis of the deposited data

Results flagged for a closer look

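Within each age, 7 of the 130 groups of 5 libraries (26 members at 5 ages) held a value whose gap to the nearest other, divided by the group's range, was above the critical value of Dixon's test, 0.71. Chance flags about 1 in 20 groups, and 7 of 130 is 5.38%. Of the 7, 6 are given here. At 30 months the high value of replicate 1 in Vps13a, 94.1 CPM against 13.3 to 25.5 CPM in the others, follows the division of the 30 month libraries given above. Creld2 in 30 month replicate 4 had 17.8 CPM, against 10.8 to 12.03 CPM in the others. At 24 months Homer1 in replicate 4 had 204 CPM, against 169 to 178 CPM, and Vps13a in replicate 3 had 76.6 CPM, against 86.7 to 90.0 CPM. At 9 months Lonrf3 in replicate 5 had 7.95 CPM, against 10.01 to 10.7 CPM, and at 2 months Iqgap2 in replicate 2 had 42.3 CPM, against 39.6 to 40.3 CPM. The 15 month division of replicates 1 to 3 from 4 and 5 is not found by this test, which looks for 1 value alone.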

How the results depend on the processing

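The number of genes that meet the rule moved from 26 to 119 with 10% in place of 15%, to 5 with 25% (Homer1, Hspa5, Lrrk2, Pdia4 and Xbp1), to 43 with a minimum of 1 CPM, to 46 with group medians, to 69 without 15 month replicates 4 and 5 and to 1 without replicates 1 to 3; the last 2 settings were chosen after the values were seen. Leaving out 1 library gave 16 to 38 genes. Other scalings, a minimum of 10 CPM and GC-corrected levels gave 19 to 31. The 31 with GC-corrected levels held 20 of the 26 members, without Arntl, Crem, Dnajc3, Ipcef1 and Spred1. At 30 months the count of 18 lower members became 1 without 30 month replicates 2 to 5, and 18 to 19 with 1 library left out; the count of 0 higher members became 1 with scaling by total counts (Xbp1, 0.20, adjusted p = 0.034 in edgeR) and stayed 0 with 1 library left out. Against 2 and 24 months the 15 lower and 3 higher members became 0 and 0 without 30 month replicates 2 to 5, and 13 to 17 and 1 to 3 with 1 library left out (1 higher, Xbp1, without 30 month replicate 4); with Alb as a covariate 1 was higher. DESeq2 called 17 lower and gave no adjusted p for Vps13a. Against the 4 younger ages, signs turned only in members that did not pass the test, apart from Dnajc1. Dnajc1 had 0.0631 without 30 month replicates 2 to 5. In that setting Sdf2l1, Xbp1, Manf and Arntl had -0.22, -0.12, -0.17 and 0.0377. With GC correction Sdf2l1, Pdia4, Xbp1, Manf and Arntl had -0.0449, 0.0573, -0.00931, -0.0286 and 0.0527. With total counts Arntl had 0.0157, with Alb as a covariate Manf had -0.0719, without 15 month replicates 4 and 5 Manf had -0.0239, and with 1 library left out Manf ranged from -0.0426 to 0.0825. Against 2 and 24 months signs also turned in members called lower. Without 30 month replicates 2 to 5, Slc5a3, Lrrk2, Vps13a, Sfpq, Lonrf3 and Dnajc3 had 0.00894, 0.088, 0.0639, 0.135, 0.1 and 0.0725 in that comparison. With GC correction Homer1 had 0.118 there. The cause of these changes was not tested. No paired analysis was possible because the titles carry no number that is shared between ages.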
